A study of Mus musculus with 6 samples.

Results

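The genes of the lactogen receptor pathway described here are Prlr, the prolactin receptor, Ghr, the growth hormone receptor, the kinase Jak2, the transcription factors Stat5a and Stat5b, and the effectors Bcl6, Pim1 and Pim3. They were taken by name, and every probe set whose single gene symbol in the platform annotation is one of these names was read separately. That gave 16 probe sets of 7 genes, out of 45037 probe sets on the array other than controls. Prlr has 0 such probe sets in the annotation used and is not analysed here, so nothing below speaks for or against a change of that receptor.

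RNA came from pancreatic islets, the clusters of hormone-secreting cells in the pancreas, which had been freed with collagenase from pregnant mice at 12.5 days post coitum (dpc; 3 arrays) and from non-pregnant mice (0 dpc; 3 arrays). The study asked which factors make islets proliferate in pregnancy. The sources used here give neither strain nor age. Nor do they tie the 3 arrays of a group to different animals, so each p-value speaks only for the spread among these samples, and that spread may be technical. Each array gives a MAS5 signal per probe set, a background-corrected intensity on a linear scale. The number of arrays limits the precision.

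Prolactin and placental lactogens bind the prolactin receptor, and growth hormone binds its own receptor, both of which are class I cytokine receptors without a kinase of their own. The bound receptor activates JAK2, which phosphorylates STAT5A and STAT5B, and these move to the nucleus and bind DNA as dimers at a palindromic core. In islets, lactogen signalling is known as a driver of beta cell growth in pregnancy. Cish and Socs2 are STAT5 targets that feed back on the pathway, and Bcl6 is a transcriptional repressor reported to act on the menin gene Men1 in islets of pregnant mice.

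The core that STAT5 dimers bind, TTCNNNGAA, reads the same on both strands. Promoter windows of RefSeq (build GRCm38.p6, 250 bases before to 50 bases after each annotated start) were searched for it. Among 32851 windows of all genes, 8.3% held at least 1 copy and 0.457% held at least 2. The 7 genes had 12 windows, and 2 of these, both of Bcl6, held the core. The windows of Ghr, Jak2, Stat5a, Stat5b, Pim1 and Pim3 held none, which says only that these letters are absent there. Windows of some pathway genes named further below were also searched. Cish held the core, while Birc5, Il13ra1, Il6ra, Osmr, Ptpn1, Tph1 and Tph2 held none. Socs2, Tnfrsf11b and Bcl6b had no window to search. The 3 windows below are shown because Bcl6 and Cish carry several copies and Pim3, the gene with the largest called difference among the members, carries none. They lie at chr16:23981234-23981533 on the minus strand (the second window of Bcl6), chr9:107296409-107296708 on the plus strand (Cish) and chr15:88861944-88862243 on the plus strand (Pim3). Capitals mark each copy of the core.
Bcl6 window: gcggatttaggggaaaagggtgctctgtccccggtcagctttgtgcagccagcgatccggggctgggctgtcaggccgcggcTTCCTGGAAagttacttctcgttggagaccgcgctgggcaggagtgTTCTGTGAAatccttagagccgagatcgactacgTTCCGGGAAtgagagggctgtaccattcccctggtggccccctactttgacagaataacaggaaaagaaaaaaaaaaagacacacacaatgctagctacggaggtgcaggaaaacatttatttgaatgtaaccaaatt
Cish window: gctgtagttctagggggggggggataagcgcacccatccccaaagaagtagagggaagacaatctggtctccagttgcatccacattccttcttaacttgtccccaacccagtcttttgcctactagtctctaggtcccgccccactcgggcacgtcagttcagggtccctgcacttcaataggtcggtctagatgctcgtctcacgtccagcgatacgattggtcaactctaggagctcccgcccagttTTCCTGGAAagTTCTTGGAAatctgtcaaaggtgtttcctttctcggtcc
Pim3 window: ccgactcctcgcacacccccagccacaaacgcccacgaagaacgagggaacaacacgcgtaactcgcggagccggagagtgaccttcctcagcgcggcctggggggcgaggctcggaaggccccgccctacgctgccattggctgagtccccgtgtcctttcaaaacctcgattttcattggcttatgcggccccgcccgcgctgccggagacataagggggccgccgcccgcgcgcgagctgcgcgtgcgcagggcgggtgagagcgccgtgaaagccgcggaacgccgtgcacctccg
In the Bcl6 window the copies are TTCCTGGAA, TTCTGTGAA and TTCCGGGAA, and their first bases lie at -168, -122 and -88 from the start. The other Bcl6 window holds TTCTCAGAA at -118. In the Cish window TTCCTGGAA begins at 1 and TTCTTGGAA at 12. A match is a description of the sequence and not evidence of binding.

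Of the 16 probe sets, 14 were bright enough to be tested, and 4 of these were lower in pregnancy and 0 higher. The 4 belonged to Ghr (2 probe sets) and Pim3 (2 probe sets), with falls of 0.31 to 0.49 on the log2 scale. Over the whole array 4.78% of the 27022 tested probe sets were lower and 4.79% higher (9.57% in either direction) at the same threshold, a limma adjusted p under 0.05. Values were tested as log2(signal + 16), and this pseudocount shrinks the log2 differences of dim probe sets. An unadjusted p under 0.05 was found in 6 of the 14, against 6190 of all 27022. The log2 difference was below 0 in 12 of the 14, where 57.2% of all tested probe sets were below 0. The median was -0.27 over the 14 and -0.04 over all tested probe sets. In 5 of the 14 every pregnant array lay below every non-pregnant array, which held for 16.1% of all tested probe sets. The groups stood apart in either direction in 27.7% of all tested probe sets. Probe sets of the same gene were counted separately here and are not independent, so these counts do not stand for as many genes.

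**Figure D1:**
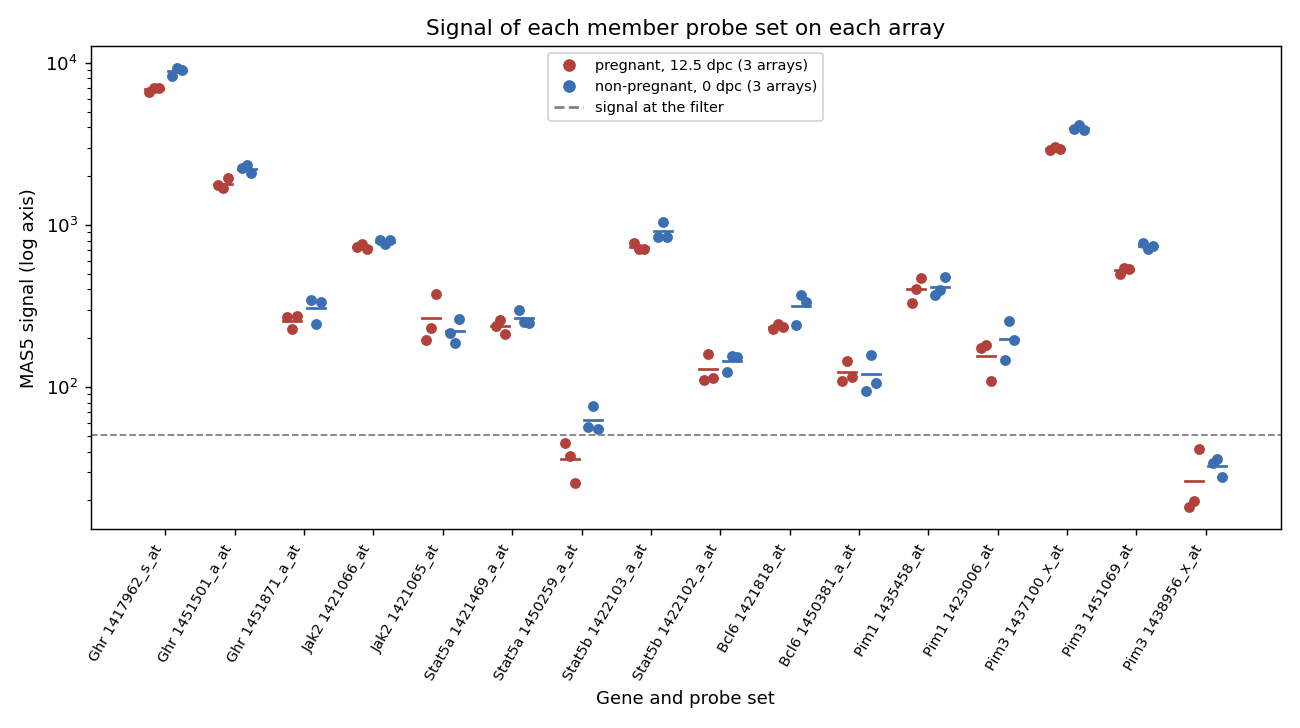
MAS5 signal (log axis) of each of the 16 probe sets on the 3 pregnant arrays (left, red) and the 3 non-pregnant arrays (right, blue), with the group mean as a bar and the signal at the filter, 50.5, as a dashed line. The groups stand apart in the brighter probe sets of Ghr, Stat5b and Pim3 and in the dim Stat5a probe set, 6 of the 16, and overlap in the others.

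Ghr, which binds growth hormone and in the mouse also yields a soluble binding protein by alternative splicing, was lower in pregnancy in both of its brighter probe sets. Probe set 1417962_s_at had signals of 6624, 7000 and 7016 on the pregnant arrays, against 8233, 9295 and 9040 on the non-pregnant arrays. All 3 pregnant arrays lay below all 3 non-pregnant ones. The means were 6880 ± 222 in pregnant and 8856 ± 555 in non-pregnant islets (SD, n = 3 each), 22.3% lower. On the log2 scale this was -0.36 ± 0.06 (SE), at a limma adjusted p of 0.0029. Probe set 1451501_a_at read 1770, 1679 and 1937 on pregnant arrays, against 2244, 2349 and 2085 on non-pregnant arrays, again without overlap. Its log2 difference was -0.31 ± 0.08 (limma adjusted p = 0.030). The dimmest, 1451871_a_at, read 270.2, 227 and 274.1 on pregnant arrays, against 346.2, 243.2 and 336.4 on non-pregnant arrays. These ranges overlapped, and the difference of -0.24 ± 0.17 did not pass (95% interval -0.60 to 0.12, limma adjusted p = 0.44). Probe sequences were not at hand, so whether probes of these Ghr probe sets also bind other transcripts was not tested.

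The call of 1417962_s_at ended when the fit took no account of how the spread depends on signal, the variance trend (limma adjusted p = 0.097). That of 1451501_a_at did not hold without the trend (0.16), with each array centred on its median (-0.23, limma adjusted p = 0.14), with the replicate number as a block (0.052), without pregnant replicate 1 (0.10) or 2 (0.12), or without non-pregnant replicate 1 (0.064) or 2 (0.10).

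Jak2, the kinase bound to both receptors, did not pass in either probe set. Probe set 1421066_at read 726.9, 762.8 and 706.7 on pregnant arrays, against 805.3, 757.1 and 802.5 on non-pregnant arrays. One pregnant array lay within the range of the non-pregnant arrays, and the log2 difference was -0.10 ± 0.09 (95% interval -0.30 to 0.09, limma adjusted p = 0.56). Probe set 1421065_at read 195.4, 229.8 and 374.7 on pregnant arrays, against 214.3, 185.8 and 263.4 on non-pregnant arrays. Its difference of 0.21 ± 0.22 (95% interval -0.27 to 0.70) rested on pregnant replicate 3, without which it was -0.04.

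Stat5b, of the pair of closely related STAT5 genes, had its brighter probe set lower on every pregnant array, but not past the threshold. Probe set 1422103_a_at read 776.9, 711.4 and 712.6 on pregnant arrays, against 846.1, 1045 and 846.2 on non-pregnant arrays. The log2 difference was -0.30 ± 0.11 (95% interval -0.53 to -0.07), with an unadjusted p of 0.014 and a limma adjusted p of 0.10. Probe set 1422102_a_at read 110.3, 160.9 and 113.9 on pregnant arrays, against 123.7, 154.9 and 153 on non-pregnant arrays, which overlapped (-0.16 ± 0.21).

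Stat5a did not pass in the 1 probe set that could be tested. Probe set 1421469_a_at read 236.4, 260.4 and 212.6 on pregnant arrays, against 298.1, 253.3 and 250 on non-pregnant arrays. The ranges overlapped, with a log2 difference of -0.17 ± 0.15 (95% interval -0.50 to 0.16, limma adjusted p = 0.58). The other, 1450259_a_at, was under the filter and was not tested. It read 45.3, 37.6 and 25.7 on pregnant arrays, against 56.4, 76.5 and 54.9 on non-pregnant arrays. These did not overlap, and 1 of the pregnant values lies within the 1.1 to 32.3 spanned by the TrpnX controls for a bacterial transcript. Stat5a and Stat5b share much of their sequence, so probes of one may also bind RNA of the other, which was not tested.

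Bcl6 did not pass in either probe set. Probe set 1421818_at read 227.2, 244.3 and 236.2 on pregnant arrays, against 241.2, 370.9 and 334.5 on non-pregnant arrays. The pregnant arrays lay close together at 235.9 ± 8.55 (SD, n = 3), while non-pregnant arrays spread over 315.5 ± 66.9, and 1 pregnant array overlapped them. The log2 difference was -0.38 ± 0.17 (95% interval -0.74 to -0.01), with an unadjusted p of 0.046 and a limma adjusted p of 0.21. Probe set 1450381_a_at read 109.6, 145.2 and 114.8 on pregnant arrays, against 94.6, 158.5 and 105.6 on non-pregnant arrays. The pregnant values all lay inside the non-pregnant range (0.06 ± 0.24, limma adjusted p = 0.92), and the sign turned with the acinar level of each array as a covariate (-0.40) or without pregnant replicate 2 (-0.05), non-pregnant replicate 1 (-0.07) or non-pregnant replicate 3 (-0.01).

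**Figure D2:**
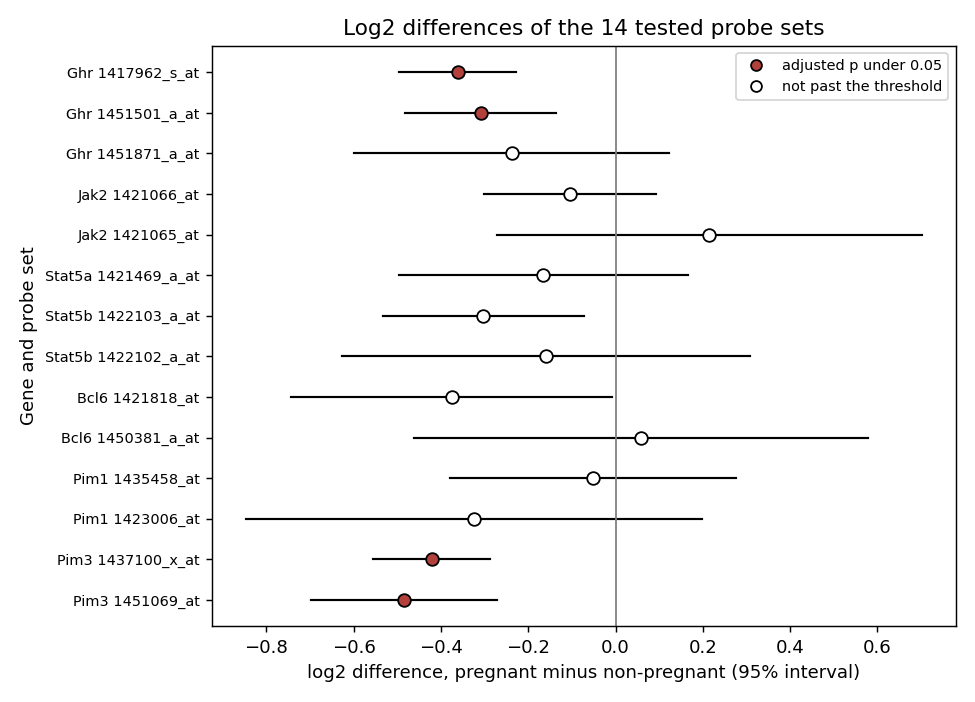
Log2 difference, pregnant minus non-pregnant, of each of the 14 tested probe sets (horizontal axis) with its 95% interval, filled where the limma adjusted p is under 0.05. The 4 filled points, 2 of Ghr and 2 of Pim3, lie between -0.49 and -0.31, and 12 of the 14 points lie below 0.

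Pim3, a serine/threonine kinase of the Pim family that promotes survival and growth, was lower in pregnancy in both of its tested probe sets. Probe set 1437100_x_at read 2908, 3006 and 2957 on pregnant arrays, against 3907, 4134 and 3855 on non-pregnant arrays. The groups were far apart relative to their spread, at 2957 ± 49.2 in pregnant and 3965 ± 148 in non-pregnant islets (SD, n = 3 each). This is 25.4% lower, a log2 difference of -0.42 ± 0.06 (limma adjusted p = 0.0011), and its p ranked 436 among 27022. Probe set 1451069_at read 500, 539.5 and 531.2 on pregnant arrays, against 768.8, 706.1 and 743.6 on non-pregnant arrays. Its difference was the larger, -0.49 ± 0.10 (29.2% lower, limma adjusted p = 0.0083), also without overlap. The third, 1438956_x_at, was under the filter at 18.1, 19.7 and 41.7 on pregnant arrays, against 33.9, 36.2 and 27.9 on non-pregnant arrays, and was not tested. The ending _x_at marks probe sets some of whose probes may bind other transcripts, which 1451069_at does not carry. Without the variance trend the limma adjusted p of 1437100_x_at was 0.058.

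Pim1, the relative of Pim3 and a STAT5 target in blood cells, did not pass. Probe set 1435458_at read 330.6, 402.3 and 472.5 on pregnant arrays, against 371.6, 398.8 and 475.1 on non-pregnant arrays. The ranges almost coincided (-0.05 ± 0.15, 95% interval -0.38 to 0.28), and the sign turned with median centring (0.02). Probe set 1423006_at read 174.4, 182 and 109.2 on pregnant arrays, against 145.8, 254.4 and 195.6 on non-pregnant arrays. Its spread within each group was wide, and the difference of -0.32 ± 0.24 had a 95% interval of -0.85 to 0.20 (limma adjusted p = 0.48).

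Since receptor isoforms can differ at the 3' end, each dimmer probe set of a gene was compared with its brightest one, by testing whether the log2 difference between them changed with pregnancy. Of 7 such pairs among the members, 0 passed in limma, and 1 had an unadjusted p under 0.05. Over all genes 1 of 10422 pairs passed (0.0096%), and 924 had an unadjusted p under 0.05. For Ghr the log2 difference of 1451501_a_at minus that of 1417962_s_at was 0.05 ± 0.12 (95% interval -0.24 to 0.35). That of 1451871_a_at minus that of 1417962_s_at was 0.12 ± 0.20 (95% interval -0.35 to 0.60). For Pim3 the pair differed by -0.06 ± 0.11 (95% interval -0.33 to 0.20). The pair with the unadjusted p under 0.05 was that of Bcl6 (0.43 ± 0.15, limma adjusted p = 0.51). The tables used do not place a probe set on an isoform. The beta-actin ratio of 3' to 5' signal, a sign of RNA quality, was 1.63 to 1.66 on pregnant and 1.56 to 1.63 on non-pregnant arrays, just without overlap, while that of Gapdh was 0.687 to 0.725 and 0.669 to 0.711. The part of RNA quality in these results was not tested.

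Markers of some other cells moved with the groups. Of 13 tested markers of acinar cells, the enzyme-secreting cells around islets, 12 were lower and 0 higher, and their summed signal ran from 99661 to 160043 on pregnant arrays, against 168604 to 305417 on non-pregnant arrays. Of 6 stellate cell and fibroblast markers, 3 were lower and 0 higher (sums 3061 to 4412 on pregnant, against 6507 to 6557 on non-pregnant arrays). Among 7 macrophage and lymphocyte markers, 1 was higher, C1qa, and 0 lower (sums 8920 to 10081 on pregnant, against 5660 to 6321 on non-pregnant arrays). C1qa makes up most of these sums, at 6625 to 7823 on pregnant and 3120 to 3810 on non-pregnant arrays, and the median log2 difference of the list was 0.0031. Csf1r was lower on every pregnant array without passing (-0.28 ± 0.09, limma adjusted p = 0.068), as was C1qb (-0.17 ± 0.11, limma adjusted p = 0.38). Of 7 endothelial and 3 duct markers 1 each was lower, as was 1 of 4 alpha cell markers, Irx1, while 0 of 3 delta and PP cell markers passed. The single tested adipocyte marker did not pass, and Adipoq was under the filter. Of 6 beta cell markers, among them Ins2, Pdx1 and Iapp, 0 passed (sums 134586 to 136703 on pregnant, against 124830 to 133910 on non-pregnant arrays). In whole islets fewer cells of a type and less RNA per cell cannot be told apart.

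With the median acinar level of each array as a covariate, none of the 4 calls held, while 3 of the 4 differences were as large or larger and their standard errors grew. The brighter Ghr probe set then had -0.41 ± 0.11 (limma adjusted p = 0.094) and 1451501_a_at -0.34 ± 0.15 (0.30). The brighter Pim3 probe set had -0.48 ± 0.11 (0.051) and 1451069_at -0.37 ± 0.18 (0.38). The part of the stellate markers and of C1qa in these results was not tested.

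**Figure D3:**
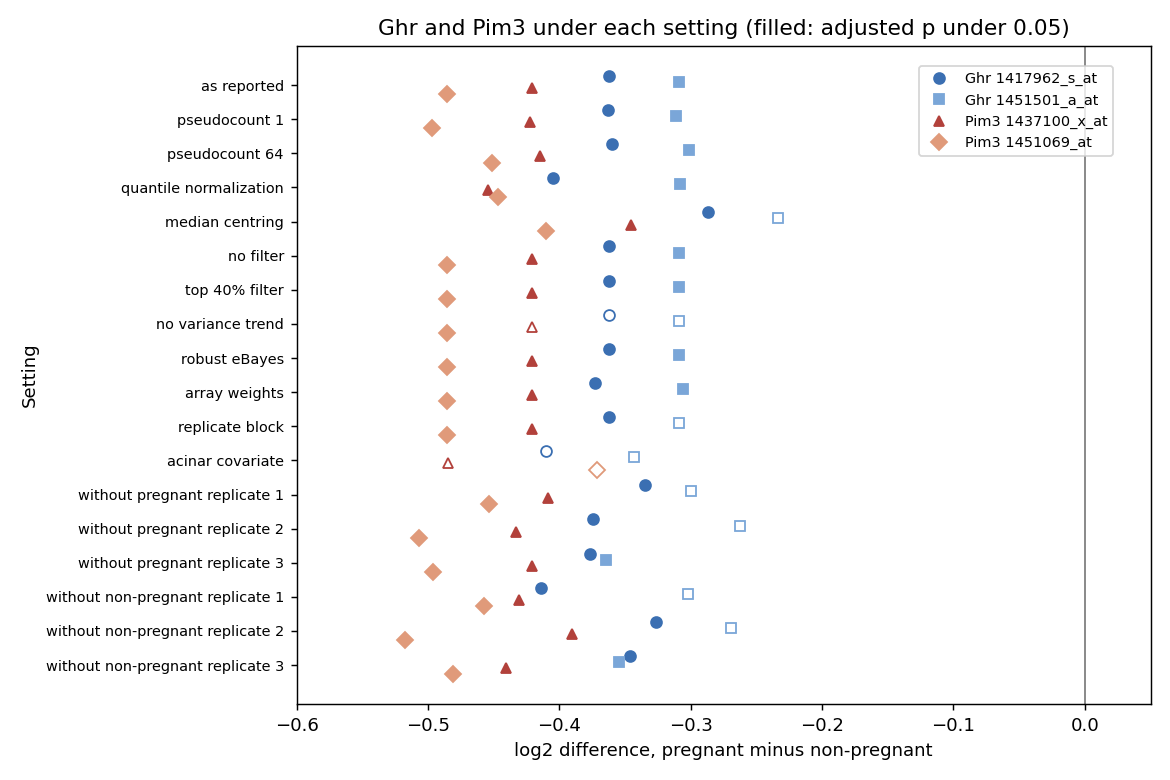
Log2 difference, pregnant minus non-pregnant, of the 4 called probe sets (horizontal axis) under each setting (rows), filled where the limma adjusted p is under 0.05. All points lie below 0. With the acinar covariate all 4 symbols are open, and that of Ghr 1451501_a_at is open in 8 of 17 alternatives.

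The 5 genes listed next followed the profile of Ghr 1417962_s_at most closely over the 6 arrays, measured by the Euclidean distance between log2 profiles centred on their means, among 12913 other genes. They were Marchf7, a ubiquitin ligase (distance 0.045), Gad1, which makes the transmitter GABA (0.077), Nipbl, a loader of cohesin (0.082), Vps37a, a subunit of an endosomal sorting complex (0.098), and Slc22a23, of a family of transporters (0.099). Gad1 read 5119, 5312 and 5321 on pregnant arrays, against 6588, 7362 and 7193 on non-pregnant arrays. The 5 had log2 differences between -0.42 and -0.33. They were picked for this likeness, which is a description without a test.

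The other genes of the pathway were read from 7 lists of 80 genes, of which 63 were tested, each by its brightest probe set. In all 10 were higher and 6 lower, counted over brightest probe sets, where 6.1% of 12914 genes were higher and 5.79% lower. Their median log2 difference was -0.07, against -0.04 over all tested genes. In 4 more genes a dimmer probe set passed while the brightest did not. They were Stat3 and Gab1, described below, and the cell cycle genes Ccnd2 and Cdkn1b. For Ccnd2 3 dimmer probe sets of 7 tested passed (-0.48 to -0.19), and the others had -0.18 to -0.10 without passing. The dimmer Cdkn1b probe set had -0.61 ± 0.11 (limma adjusted p = 0.0033). These 4 genes were named after their values were seen. The lists were chosen with earlier results of these data known, so their counts are no independent evidence of a direction. The ligand genes Prl and Gh, which pituitary cells express, were under the filter with signals of at most 47.2 on any array.

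Among 18 feedback inhibitors and phosphatases 2 were higher and 1 lower, with a median of -0.03. Cish, the STAT5-induced inhibitor with 2 copies of the core in its promoter window, read 5542, 5384 and 5438 on pregnant arrays, against 1890, 1829 and 2675 on non-pregnant arrays. All pregnant arrays lay above all non-pregnant ones, and the log2 difference was 1.37 ± 0.12 (limma adjusted p = 1.9e-05). Socs2, which dampens growth hormone signalling, read 8680, 8916 and 8849 on pregnant arrays, against 4284, 4960 and 4891 on non-pregnant arrays (0.90 ± 0.07, limma adjusted p = 5.5e-06). Both kept their direction and passed in each of 18 alternatives. Ptpn1, a tyrosine phosphatase that acts on JAK2, was the 1 that was lower (-0.32 ± 0.08, limma adjusted p = 0.021), a call that was lost in 8 of 18 alternatives. The dimmer Ptpn1 probe set had -0.09 ± 0.12 and did not pass (limma adjusted p = 0.73). The other genes of the list did not pass, among them Socs3 (-0.14 ± 0.10) and Socs1 (0.12 ± 0.32).

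Of 6 other JAKs and STATs tested, 0 passed in their brightest probe set, with a median of -0.16. Stat3, the STAT of the interleukin-6 family, read 3538, 3491 and 4448 on pregnant arrays, against 3508, 3785 and 3257 on non-pregnant arrays, which overlapped (0.11 ± 0.09). A dimmer Stat3 probe set, 1460700_at, was higher, with means of 2315 in pregnant and 1927 in non-pregnant islets (0.26 ± 0.07, limma adjusted p = 0.026). The remaining Stat3 probe sets had -0.08 ± 0.30 and 0.55 ± 0.31 and did not pass. Jak1 had -0.15 ± 0.06 (limma adjusted p = 0.19) and Stat6 -0.29 ± 0.14 (0.26). The 8 adaptors to the MAPK and PI3K pathways also gave 0 calls by their brightest probe sets, with a median of 0.0002. Irs2, a docking protein of insulin signalling, had -0.35 ± 0.12 (limma adjusted p = 0.098). A dimmer probe set of Gab1, a docking protein of growth factor receptors, was lower (1417694_at, -0.64 ± 0.17, limma adjusted p = 0.038), while the brightest of that gene had -0.34 ± 0.17 (0.25). The remaining Gab1 probe set had -0.22 ± 0.21 and did not pass (limma adjusted p = 0.60).

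Of 13 other class I cytokine receptor chains, 2 were lower and 1 higher, with a median of -0.19. Il6ra, which binds interleukin-6, read 3385, 3364 and 3260 on pregnant arrays, against 6422, 6900 and 5603 on non-pregnant arrays. The pregnant arrays were close together and all far below the others (-0.91 ± 0.08, limma adjusted p = 1.6e-05), and the call held in each of 18 alternatives. Osmr, the oncostatin M receptor, was lower by a log2 difference of -0.61 ± 0.17 (limma adjusted p = 0.038), a call lost in 11 of 18 alternatives, the omission of any 1 array among them (0.063 to 0.12). Il13ra1, a chain that binds interleukin-13, was higher (0.70 ± 0.14, limma adjusted p = 0.0067), with 506.8, 571.4 and 514.9 on pregnant arrays, against 384.8, 291 and 294.3 on non-pregnant arrays. That call was lost without the variance trend (limma adjusted p = 0.060) and with the acinar covariate (0.11). The shared chain of the interleukin-6 family, Il6st, had 0.11 ± 0.09, and the leukemia inhibitory factor receptor Lifr -0.19 ± 0.08, neither past the threshold.

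**Figure D4:**
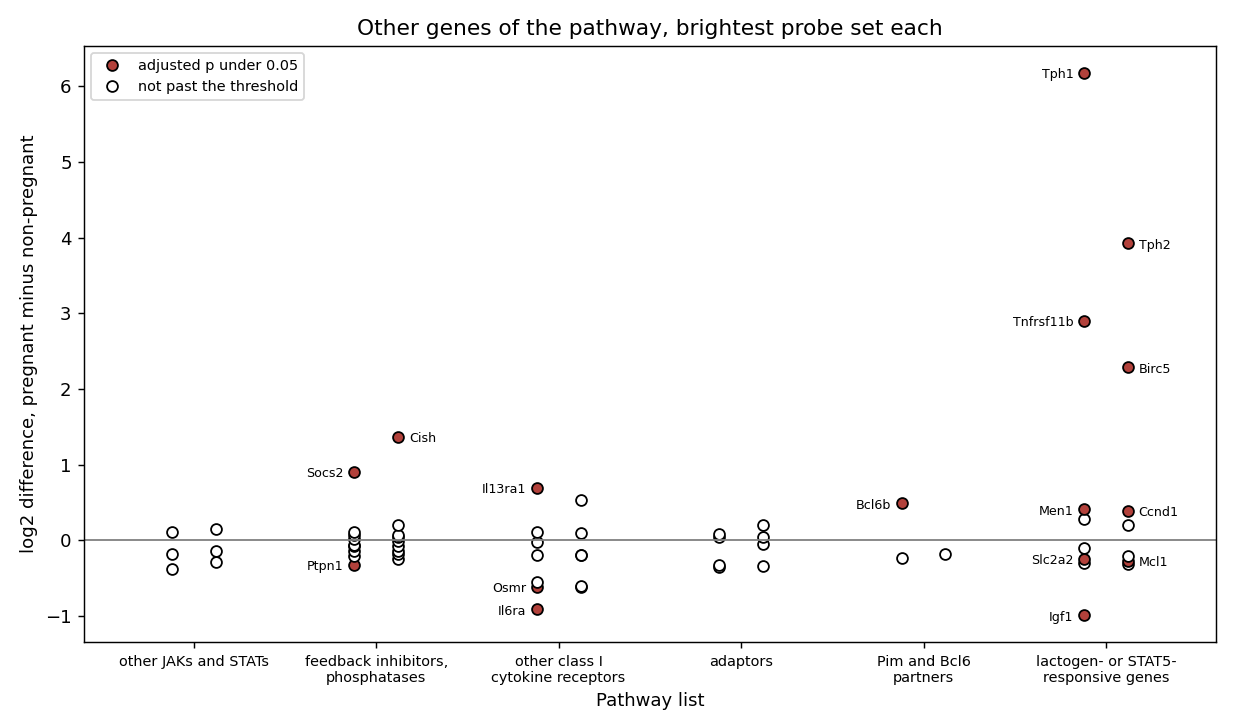
Log2 difference, pregnant minus non-pregnant (vertical axis), of the brightest probe set of each tested gene in 6 pathway lists, filled and named where the limma adjusted p is under 0.05. Most genes lie near 0, and the largest values are those of Tph1 at 6.17 and Tph2 at 3.92.

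Of 3 tested relatives and partners of the effectors, 1 was higher. Bcl6b, a homologue of Bcl6, read 950.6, 844.8 and 972 on pregnant arrays, against 588.9, 604.3 and 773.4 on non-pregnant arrays (0.49 ± 0.12, limma adjusted p = 0.021). That call was lost in 6 of 18 alternatives. Pim2, the remaining Pim kinase, had -0.23 ± 0.08 and did not pass (limma adjusted p = 0.12).

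Among 15 genes known to respond to lactogens or STAT5, 6 were higher and 3 lower, with a median of 0.20. The list sets no expected direction for its genes, so neither the counts nor the median measure a response. The 4 with the smallest p were the serotonin synthesis enzymes Tph1 (6.17 ± 0.21) and Tph2 (3.92 ± 0.22), the decoy receptor gene Tnfrsf11b (2.90 ± 0.17) and Birc5, the division protein survivin (2.29 ± 0.37). Their limma adjusted p-values ran from 7.1e-09 for Tph1 to 0.0021 for Birc5. Non-pregnant signals were dim, 50.3, 80.8 and 28.6 for Tph1 and 15.3, 71.1 and 88 for Birc5, and 1 of each lies within the range of the TrpnX controls, so the size depends on the pseudocount. With a pseudocount of 1 or 64 Birc5 had 2.70 or 1.65 and Tph1 6.57 or 5.38. The call of Birc5 was lost without the variance trend (limma adjusted p = 0.061) and with the acinar covariate (0.19). The other 5 were named after their values were seen. Ccnd1, cyclin D1, was higher (0.39 ± 0.08; limma adjusted p = 0.12 without the variance trend), and so was Men1 (0.41 ± 0.11), whose call was lost in 8 of 18 alternatives, among them the omission of 1 array in 5 of 6 cases (limma adjusted p = 0.065 to 0.11). The dimmer Men1 probe sets had 0.36 ± 0.24 and 0.13 ± 0.31 and did not pass. A dimmer Ccnd1 probe set had 0.27 ± 0.06 and passed (limma adjusted p = 0.015). The other dimmer Ccnd1 probe set had 0.13 ± 0.08 and did not pass (limma adjusted p = 0.32). Slc2a2, the glucose transporter of beta cells, was lower (-0.25 ± 0.05), a call lost with median centring (limma adjusted p = 0.24), without the variance trend (0.15) and with the acinar covariate (0.22). Also lower were the survival gene Mcl1 (-0.27 ± 0.07) and Igf1, which growth hormone induces in liver (-0.99 ± 0.28). The call of Mcl1 was lost in 10 of 18 alternatives and that of Igf1 in 12 of 17. Each was lost without 1 array in 5 of 6 cases, at limma adjusted p-values of 0.051 to 0.11 for Mcl1 and 0.065 to 0.16 for Igf1. The dimmer Mcl1 probe sets did not pass and had log2 differences of -0.33 to 0.07. A dimmer Igf1 probe set had -1.27 ± 0.44 and did not pass (limma adjusted p = 0.10). The other dimmer Igf1 probe set had 0.01 ± 0.29, and its difference from the brightest was 1.00 ± 0.17 (unadjusted p = 0.00071, limma adjusted p = 0.36).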

How the data were processed

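The deposited table holds linear intensities of 45101 probe sets on 6 arrays, which the submitters' processing notes name as MAS5 signals without a version or settings. The labels' protocols start the labelling from 100 ng of total RNA. The trimmed means of the arrays agreed within 5%, so no scaling was added. The median signal of the arrays ran from 86.1 to 100.3. The 64 AFFX controls were left out, signals were taken as log2(signal + 16), and the top 60% by mean (a signal of about 50.5) were tested, 27022 in all.

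Symbols came from the platform annotation, which gave 34958 probe sets 1 symbol, 932 several and 9211 none. Of the single symbols 34754 were found in RefSeq and 0 changed.

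The groups were tested in limma 3.58.1, run in R 4.3.3 (eBayes with a variance trend, 2-sided, Benjamini-Hochberg adjusted p under 0.05, 4 residual degrees of freedom). Pairs of probe sets were fitted without the trend. The fit was run on simulated data drawn from its own variance model, which does not test that model on these arrays. The members and lists were chosen with earlier results of these data known. The rule for named genes took every member probe set, Cish and Socs2, up to 4 called genes of each list by smallest p, and the 5 genes nearest to the Ghr profile. The rule also named the profile of Prlr, which is not analysed here. Alternatives were pseudocounts of 1 and 64, quantile normalization, median centring, no filter and a top 40% filter, no variance trend, robust eBayes, array weights, the replicate block, the acinar covariate, each array left out and, for pathway genes, the mean of a gene's probe sets. Figures were drawn with matplotlib 3.10.9.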

Additional observations from a re-analysis of the deposited data

How the results depend on the processing

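Of the 14 tested member probe sets, 10 kept their sign under all of their alternatives, at most 17 each, and 0 passed that had not passed before. The count of member probe sets lower in pregnancy was 4, then 1 without the variance trend, 0 with the acinar covariate, 3 with median centring or the replicate block, and 3 to 4 with 1 array left out. That of higher ones was 0 in each alternative. The sign turned in 4 member probe sets. Bcl6 1450381_a_at had -0.40 with the acinar covariate and -0.074 to 0.25 with 1 array left out. Ghr 1451871_a_at had 0.15 with the acinar covariate. Jak2 1421065_at had -0.044 to 0.40 with 1 array left out (-0.044 without pregnant replicate 3). Pim1 1435458_at had 0.023 with median centring, 0.24 with the acinar covariate and -0.17 to 0.075 with 1 array left out. Among pairs of probe sets with 1 array left out, Ghr 1451501_a_at had -0.0086 to 0.11, Ghr 1451871_a_at -0.066 to 0.26, Pim1 1423006_at -0.49 to 0.059 and Stat5b 1422102_a_at -0.032 to 0.27. The Pim3 pair had 0.0073 with quantile normalization and 0.11 with the acinar covariate. The cause was not tested. The acinar level did not overlap between the groups, so the fit with that covariate can hardly tell it and pregnancy apart.

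The 2587 probe sets past the threshold over the whole array became 603 without the variance trend and 506 with the acinar covariate, and 1482 to 2259 with 1 array left out (1482 without pregnant replicate 1, 1577 without pregnant replicate 2). With median centring 1430 were higher and 583 lower, against 1294 and 1293 as reported. The counts were 393 and 210 without the variance trend and 337 and 169 with the acinar covariate. With 1 array left out they ran from 808 to 1282 higher and from 674 to 977 lower. Pathway genes higher in pregnancy were 10, 5 without the variance trend and 6 with the acinar covariate. Those lower were 6, 1 with median centring or the acinar covariate, 2 without the variance trend, 3 with no filter and 2 to 5 with 1 array left out. Pairs that differed were 1, 2 with a pseudocount of 64, 4 with the top 40% filter, and 0 with no filter, the replicate block, the acinar covariate or any 1 array left out. Nothing in the labels says that a number marks a shared animal or day, so the numbers were not taken as pairs. Same-numbered arrays of the groups deviated with correlations of -0.07 to 0.03, and differently numbered ones with -0.04 to 0.07. With the replicate block 2356 probe sets passed, and Ghr 1451501_a_at had an adjusted p of 0.052 in limma. Dim probe sets limit the result, since those of Bcl6, Pim1 and Stat5a had wide intervals.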
